A study of Mus musculus with 36 samples.

Results

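Mouse embryonic fibroblasts (MEFs) that stayed on the DOT1L inhibitor SGC0946 through 4 days of reprogramming (the full window) were compared with cells from which it was withdrawn at day 2 (the early window). The comparison used 4 of the 36 RNA sequencing libraries of the series, 2 per window, chosen by their labels alone. Full-window cells received SGC0946 on days 0 to 4. Early-window cells received it on days 0 to 2 and the vehicle DMSO on days 2 to 4. Both groups therefore shared 2 days of inhibitor and differed only in days 2 to 4. The question was what the continued exposure added, and which early changes were gone 2 days after withdrawal. Further groups of 2 libraries each gave the context. Mid-window cells received DMSO on days 0 to 2 and SGC0946 on days 2 to 4, day 4 control cells received DMSO for 4 days, and day 2 cells received either agent for 2 days. Every one of these groups was on doxycycline throughout and carried 2 copies of an inducible cassette at the Col1a1 locus, encoding Oct4, Klf4, Sox2 and c-Myc, and 1 copy of the reverse tetracycline transactivator at Rosa26. The MEFs came from E13.5 embryos and were grown in medium with leukemia inhibitory factor on irradiated feeder MEFs. The feeders are fibroblasts themselves, and the counts cannot separate their RNA from that of the reprogramming cells.

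DOT1L is the methyltransferase of lysine 79 of histone H3, a mark laid down along the bodies of transcribed genes, and it acts in complexes with MLLT family proteins that also bind elongation factors. No other enzyme is known to place this mark in mammals, so an inhibitor lets it fade as histones turn over and cells divide. In fibroblasts that are forced toward pluripotency, an early step is the mesenchymal to epithelial transition, in which the fibroblast program gives way to cell junctions, keratins and E-cadherin before the pluripotency genes come on.

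The libraries held 40012607 and 45975368 expected counts in the full window and 41293033 and 47898320 in the early window. Levels are given as CPM, counts scaled to a library total of 1000000, in each of the 2 libraries of a group, replicate 1 first. Differences are log2 fold changes of the full over the early window unless said otherwise, given with their standard error. A gene was called at an adjusted p under 0.05 in the quasi-likelihood test of edgeR, fitted to all 14 libraries of the timecourse and adjusted over all 14473 genes tested. These 14 include 2 libraries of untreated MEFs (0 days of doxycycline, no inhibitor), which entered the low-count filter and the estimate of spread. No label says that the 2 libraries of a group were separate cultures, and the p-values therefore reflect the spread of these samples alone, which may be technical. Fibroblast genes of the labelled cell type were abundant. Vim stood at 5882 and 5694 CPM in the full window and at 6035 and 6038 CPM in the early window, and Col1a2 at 4529 and 4415 against 4172 and 3960.0 CPM. Pluripotency genes ranged widely in level, with a summed level of the list of 182.3 to 184.7 CPM in the full window and 191.7 to 198.7 CPM in the early window. Most of it came from L1td1, an RNA-binding protein gene of pluripotent cells, at 113 and 116 CPM in the full window and 125 and 129 CPM in the early window. Among the genes too low to test, Zfp42 had 1 count in each full-window library and 0 in each early-window library, Esrrb had 4 and 5 counts against 2 and 3, and Dppa5a had 7 and 12 counts against 0 and 0. Within the gene lists below, members that ran against the majority were named after their values were seen.

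The added exposure changed 4486 of 14473 genes, or 31% (2409 higher, 16.6%, and 2077 lower, 14.4%). Increases reached further than decreases: 485 genes (3.35%) were called higher by 2-fold or more and 29 (0.2%) lower by 2-fold or more. The split between directions depended on the values used. With limma on log2(TPM + 1), 2628 genes were called higher and 1048 lower, while edgeR without the low-count filter called 2214 higher and 2605 lower. Without replicate 1 of the full window edgeR called 1750 higher and 1720 lower, and without replicate 2 of the early window 1709 and 1372. The libraries of the windows did not overlap in 9316 genes (64.4%). The largest changes named below were ranked among called genes whose windows did not overlap and whose average log2 CPM was 3 or more. Gene groups that rose included those of the epithelial program, of sterol synthesis and of some TGF-beta ligands. Of 27 tested fibroblast matrix genes 12 rose and 7 fell. Each list count of this comparison is to be read beside the 16.6% of all genes called higher and 14.4% called lower. Lists in which more called members fell than rose were the Hox clusters, the reprogramming factors, replication and division genes, p53 targets, the IGF axis, fibroblast identity genes and, by 4 to 3, the transcription factors of epithelial to mesenchymal transition. With limma on log2(TPM + 1) more rose than fell in the last 2 lists, by 4 to 2 for fibroblast identity genes and 4 to 3 for the transcription factors.

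**Figure D1:**
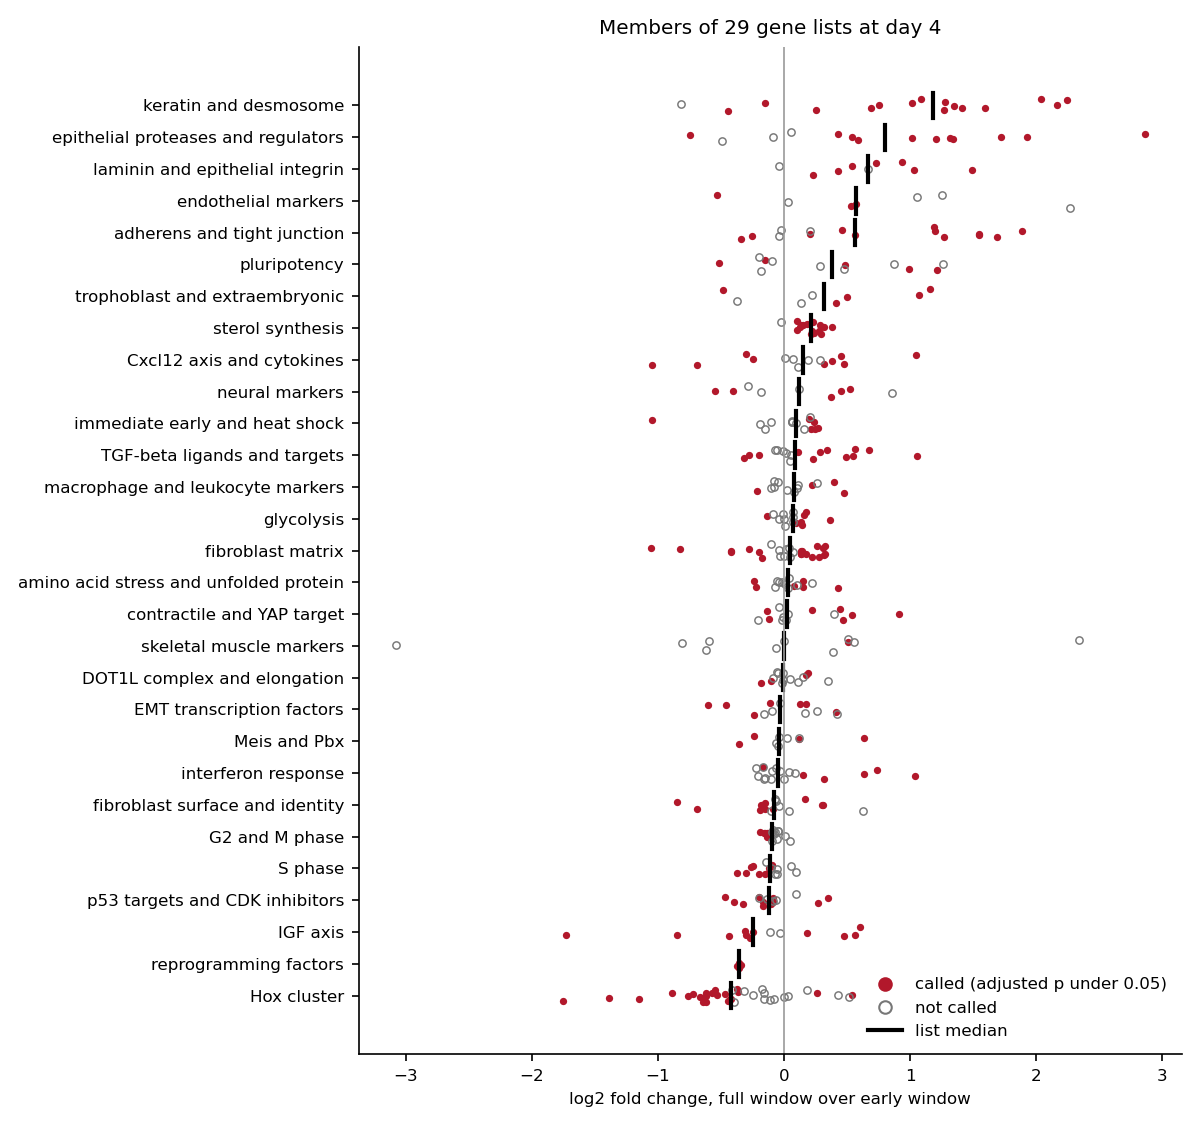
Log2 fold change of the full over the early window (horizontal axis) for the tested members of 29 gene lists (rows, ordered by median). Filled points are called genes, open points are not called, and the black bar is the median of the list. Keratin and desmosome genes lie furthest to the right, with a median of 1.18, and Hox genes furthest to the left, with a median of -0.42.

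Among genes of adherens and tight junctions, 10 of the 15 tested members rose and 2 fell, with a median of 0.56 against -0.0024 over all genes tested (4 of the 19 listed members had too few counts). Cdh1, which encodes E-cadherin, the adhesion molecule of epithelial junctions, had 28.8 and 27.0 CPM in the full window, against 11.9 and 12.6 CPM in the early window. Both full-window libraries were more than 2 times as high as either early-window library, and the change was 1.19 ± 0.078 (adjusted p = 1.14e-15). Epcam, an adhesion molecule of epithelial and pluripotent cells, stood at 4.32 and 3.80 CPM in the full window and at 1.22 and 1.54 CPM in the early window, without overlap (1.54 ± 0.21, adjusted p = 1.56e-07). The claudin gene Cldn3, which encodes a sealing protein of tight junctions, had 14.7 and 13.1 CPM in the full window and 6.16 and 5.95 CPM in the early window, a change of 1.20 ± 0.10. F11r, encoding junctional adhesion molecule A, rose less, to 61.8 and 66.2 CPM against 41.8 and 45.0 CPM in the early window (0.56 ± 0.056). Among the fallen members was the polarity gene Pard6b (-0.25 ± 0.087), whose call was lost when any 1 of the 4 libraries was left out (adjusted p between 0.0604 and 0.11) and with DESeq2 or limma (adjusted p = 0.0717 and 0.102), which left 1 fallen member in each case. In bulk RNA of this kind, fewer cells of a type and less RNA per cell cannot be told apart.

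Promoters of Epcam, Krt8, Krt18 and Spint1 are shown because these epithelial genes rose together and because E-box motifs in such promoters are the known binding sites of the SNAI and ZEB repressors. Each run is the 250 bases before the RefSeq gene start (build GRCm38.p6), 5′ to 3′ on the strand of the gene, and capitals mark the E-box CAGGTG read on either strand, where CACCTG is its reverse complement.
Epcam: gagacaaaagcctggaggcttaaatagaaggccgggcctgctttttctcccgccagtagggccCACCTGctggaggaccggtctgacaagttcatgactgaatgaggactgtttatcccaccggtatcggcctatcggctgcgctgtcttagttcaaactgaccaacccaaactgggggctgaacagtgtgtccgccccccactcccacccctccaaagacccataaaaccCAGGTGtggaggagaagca
Krt8: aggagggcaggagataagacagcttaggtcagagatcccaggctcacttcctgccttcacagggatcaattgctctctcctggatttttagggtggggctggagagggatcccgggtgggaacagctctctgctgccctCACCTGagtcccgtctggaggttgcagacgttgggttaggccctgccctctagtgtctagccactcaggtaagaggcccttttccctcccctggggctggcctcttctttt
Krt18: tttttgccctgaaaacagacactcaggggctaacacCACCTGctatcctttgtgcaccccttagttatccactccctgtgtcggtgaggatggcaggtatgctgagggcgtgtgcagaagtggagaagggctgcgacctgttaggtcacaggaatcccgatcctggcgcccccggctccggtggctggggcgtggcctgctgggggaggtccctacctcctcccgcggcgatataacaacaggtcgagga
Spint1: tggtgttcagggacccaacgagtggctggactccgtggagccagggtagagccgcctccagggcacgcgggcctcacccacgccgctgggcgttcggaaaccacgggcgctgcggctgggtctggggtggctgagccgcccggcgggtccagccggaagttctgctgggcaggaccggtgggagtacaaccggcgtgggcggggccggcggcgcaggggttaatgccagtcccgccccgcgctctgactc
These windows are chr17:87635729-87635978 (plus strand) for Epcam, chr15:102004343-102004592 (minus strand) for Krt8, chr15:102027966-102028215 (plus strand) for Krt18 and chr2:119237110-119237359 (plus strand) for Spint1. The E-box begins 187 and 19 bases before the start in Epcam, 111 bases before it in Krt8 and 214 bases before it in Krt18, and it is not in the Spint1 window. It is in 3 of the 4 windows shown and in 17.2% of the 32851 promoters of the table (5657). The motif AACCNGTT, known from Grainyhead-like factors, and the AP-1 motif TGANTCA were searched on both strands and are in 0 of the 4, against 1.79% and 6.75% of all promoters. A match is a description of the letters and not a measured binding site.

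Keratin and desmosome genes changed most as a list: 13 of the 16 tested members rose and 2 fell, with a median of 1.18, or 0.69 with limma on log2(TPM + 1) (2 of 18 members were too low to test). Krt8 and Krt18 encode the keratin pair of simple epithelia. Krt8 had 16.1 and 17.0 CPM in the full window, against 3.98 and 4.08 CPM in the early window, a change of 2.03 ± 0.098 (adjusted p = 1.30e-19). Krt18 had 8.61 and 9.23 CPM in the full window, against 1.92 and 1.84 CPM in the early window (2.25 ± 0.14, adjusted p = 1.74e-16). For both genes the full-window libraries were at least 3 times as high as the early-window libraries. Dsp, which encodes the desmosome plaque protein desmoplakin, had 78.8 and 79.8 CPM in the full window and 39.0 and 39.4 CPM in the early window (1.02 ± 0.046, adjusted p = 3.48e-20). Dsc2, a desmosomal cadherin, had 42.7 and 42.6 CPM in the full window and 26.0 and 26.9 CPM in the early window (0.69 ± 0.054). The 2 members that fell were the plakophilin gene Pkp2 (-0.45 ± 0.053) and Perp (-0.15 ± 0.041), a target of p53 and p63 that also belongs to desmosomes, whose call was lost with limma on log2(TPM + 1) (-0.11, adjusted p = 0.0545).

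Of the epithelial proteases, their inhibitors and epithelial regulators, 10 of 14 tested members rose and 1 fell (median 0.80, or 0.50 with limma on log2(TPM + 1)), while 7 of the 21 members were too low to test. Spint1, which encodes the membrane inhibitor of the protease matriptase, had 24.0 and 22.2 CPM in the full window, against 9.33 and 8.96 CPM in the early window (1.34 ± 0.087, adjusted p = 1.11e-15). Its relative Spint2 had 48.9 and 47.7 CPM in the full window, against 34.4 and 32.1 CPM in the early window (0.54 ± 0.060). Esrp2, a splicing factor of epithelial exons, was low throughout, with 3.62 and 3.51 CPM in the full window and 0.914 and 0.951 CPM in the early window, and rose by 1.93 ± 0.20 (adjusted p = 3.01e-10). Ehf, an ETS factor of epithelia, had 10.6 and 11.2 CPM in the full window and 5.79 and 5.04 CPM in the early window (1.01 ± 0.11). Grhl1, a Grainyhead-like factor, was the member that fell (-0.74 ± 0.19), and without replicate 2 of the early window its change of -0.58 was not called (adjusted p = 0.0839).

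Laminin chains and their integrin receptors, which join epithelia to the basement membrane, rose in 7 of 9 members (median 0.67, or 0.41 with limma on log2(TPM + 1)). Itga3 encodes an integrin subunit that binds laminins, and it had 25.2 and 23.5 CPM in the full window, against 11.7 and 12.1 CPM in the early window. The pairs lay close together within each window, and the change of 1.03 ± 0.075 had an adjusted p of 2.33e-14. Itga6 (0.73 ± 0.041) and the laminin alpha chain gene Lama5 (0.54 ± 0.033) rose as well. Lama5 had 338 and 325 CPM in the full window and 229.9 and 226 CPM in the early window.

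**Figure D2:**
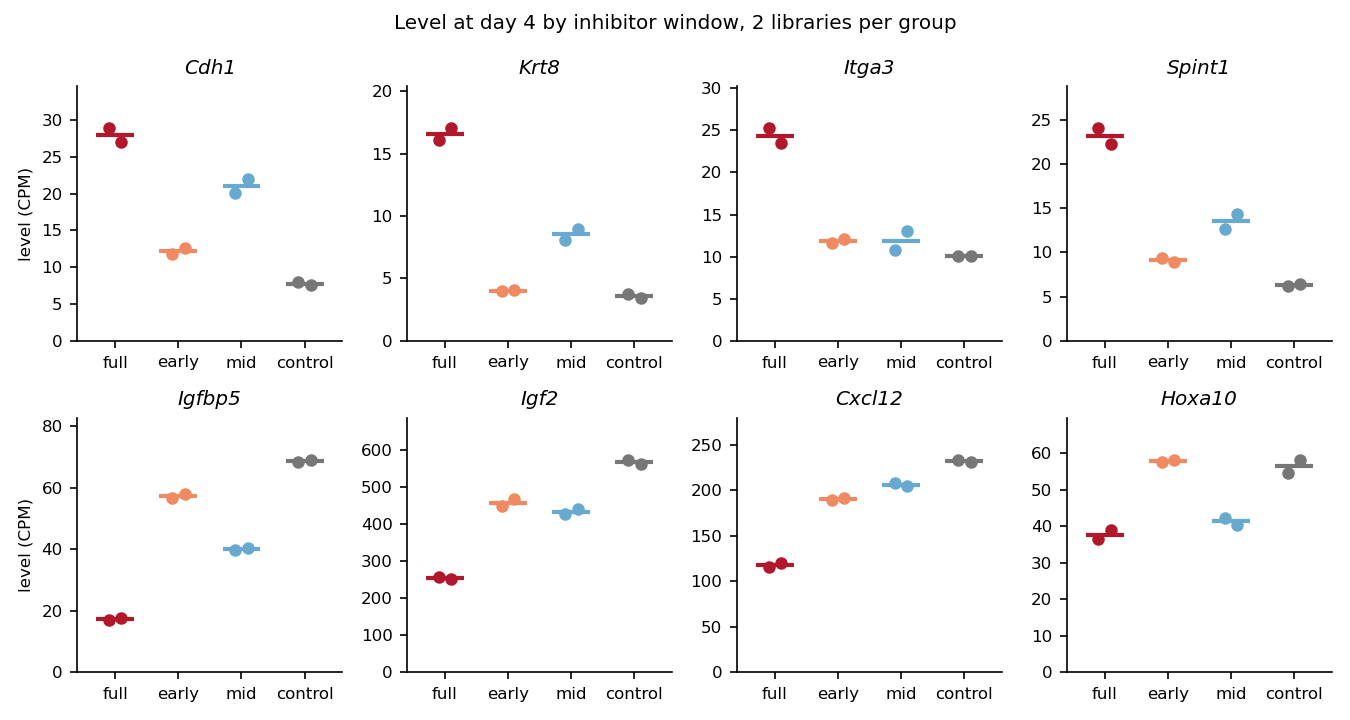
Level in CPM (vertical axes, from 0) of 8 genes at day 4 by inhibitor window, with 1 point per library and a bar at the mean of 2. The full-window libraries are the highest of the 4 groups for Cdh1, Krt8, Itga3 and Spint1 and the lowest for Igfbp5, Igf2, Cxcl12 and Hoxa10.

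The transcription factors that drive the reverse, epithelial to mesenchymal transition did not move as a group. Limma on log2(TPM + 1) called 4 of 13 higher and 3 lower, with a median of 0.0088. In the edgeR fit 3 of 13 rose and 4 fell, with a median of -0.03, beside 16.6% and 14.4% of all genes. Only 1 was called higher without replicate 2 of the full window or either early-window library, and the median was -0.05 without replicate 2 of the full window and -0.0075 without replicate 2 of the early window. Twist2 fell, with 6.42 and 7.01 CPM in the full window against 10.2 and 10.3 CPM in the early window (-0.61 ± 0.081). Zeb1 also fell (-0.24 ± 0.040), to 68.2 and 69.0 CPM in the full window against 78.9 and 82.7 CPM in the early window. Its paralog Zeb2 rose (0.41 ± 0.054), with 42.5 and 41.9 CPM in the full window and 29.4 and 33.8 CPM in the early window. Tcf4, which encodes the E2-2 partner of such factors, fell by 0.46 on the log2 scale (adjusted p = 3.53e-12).

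Fibroblast matrix genes split in both directions. Of 27 tested members 12 rose and 7 fell, with a median of 0.05, which was 0.032 without replicate 1 of the full window and 0.080 without replicate 1 of the early window. The small leucine-rich proteoglycan genes Lum and Ogn fell most. Lum had 3.31 and 3.53 CPM in the full window, against 6.49 and 7.67 CPM in the early window (-1.05 ± 0.11, adjusted p = 3.03e-10). Ogn had 66.2 and 70.8 CPM in the full window, against 122 and 122 CPM in the early window (-0.83 ± 0.043, adjusted p = 3.13e-18). Both were among the 12 largest decreases, which were ranked among genes whose windows did not overlap. Fbln1, encoding fibulin 1, fell (-0.42 ± 0.040). Among the abundant matrix genes, Fn1, encoding fibronectin, rose to 5060.0 and 4875 CPM in the full window against 3945 and 4004 CPM in the early window (0.32 ± 0.031), and Col6a1 rose by 0.31 ± 0.031. Collagen I moved little: Col1a1 had 2052 and 1928 CPM in the full window and 1867 and 1761 CPM in the early window (0.13 ± 0.035), and the call was lost without replicate 1 of the full window (0.077, adjusted p = 0.184) or replicate 2 of the early window (0.091, adjusted p = 0.129). Postn, encoding periostin, had 105 and 111 CPM in the full window and 107 and 108 CPM in the early window, which overlapped (0.015 ± 0.035, adjusted p = 0.793).

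Abi3bp, Fndc1 and Nov, outside the list, were among the 12 largest decreases. Abi3bp, which encodes an extracellular matrix protein, had 12.8 and 13.7 CPM in the full window and 25.7 and 26.5 CPM in the early window (-0.97 ± 0.069). Fndc1 had 9.49 and 9.56 CPM in the full window and 18.2 and 17.1 CPM in the early window (-0.89 ± 0.086). Nov, a member of the CCN family of matrix signalling proteins, had 11.0 and 11.8 CPM in the full window and 21.4 and 22.0 CPM in the early window (-0.93 ± 0.070). In the opposite direction, Col28a1, a beaded collagen gene, had 23.8 and 21.9 CPM in the full window and 8.44 and 7.71 CPM in the early window (1.50 ± 0.086, adjusted p = 2.64e-17), one of the 12 largest increases.

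Of the fibroblast surface and identity genes, 3 of 16 rose and 7 fell (median -0.078), beside 16.6% and 14.4% of all genes. With limma on log2(TPM + 1) the balance turned, with 4 rising, 2 falling and a median of -0.039. The transcription factor gene Hic1, expressed in mesenchymal progenitors, had 5.71 and 4.75 CPM in the full window, against 9.00 and 9.69 CPM in the early window (-0.85 ± 0.090). The homeobox gene Meox2 had 15.2 and 16.4 CPM in the full window, against 25.7 and 25.4 CPM in the early window (-0.69 ± 0.068, adjusted p = 8.60e-11). In neither gene did the windows overlap, which for Hic1 the ranking of the largest decreases required. Over all genes tested 64.4% did not overlap. S100a4 rose by 0.31 ± 0.035 and the receptor gene Pdgfrb by 0.17 ± 0.033. The surface marker Thy1, at 286 and 279.6 CPM in the full window and 276 and 274 CPM in the early window, differed by 0.041 ± 0.033 and was not called (adjusted p = 0.373).

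Of 14 contractile genes and targets of the mechanosensitive coactivator YAP, 5 rose and 2 fell (median 0.026), beside 16.6% and 14.4% of all genes. None was called lower without replicate 2 of the full window, where the median was 0.044, and 1 with limma on log2(TPM + 1), while the median was 0.015 without replicate 1 of the full window. The YAP targets Ctgf and Cyr61 rose by 0.47 ± 0.031 and 0.44 ± 0.031. Cyr61 had 659 and 647 CPM in the full window and 479 and 482 CPM in the early window. Des, encoding the muscle intermediate filament desmin, had 4.67 and 4.25 CPM in the full window and 2.32 and 2.41 CPM in the early window (0.91 ± 0.14), and the tropomyosin gene Tpm2 rose by 0.22 ± 0.040.

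Ligands and targets of TGF-beta, a signal that drives fibroblasts to make matrix and epithelia to become mesenchymal, rose in 9 of 18 members and fell in 3 (median 0.085). Over all genes 16.6% were called higher and 14.4% lower. The ligand gene Tgfb1 had 30.4 and 29.2 CPM in the full window and 18.6 and 18.9 CPM in the early window (0.67 ± 0.063), and Tgfb2 had 50.1 and 54.4 CPM in the full window and 37.0 and 37.3 CPM in the early window (0.49 ± 0.050). Inhba, encoding the activin A subunit, rose by 0.56 ± 0.072. In these 3 genes the windows did not overlap, as in 64.4% of all genes tested. Inhba was lower, however, in the mid window (-0.26 ± 0.079) and in the early window (-0.25 ± 0.075) than in the day 4 control. It was also lower with inhibitor at day 2 (-0.16 ± 0.048), and all 3 of these falls were called.

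Hox genes, which record the position of a fibroblast along the body and whose transcription is a known target of DOT1L in leukemia, mostly fell. Of 37 tested genes 21 fell and 2 rose, with a median of -0.42 (2 of the 39 members, Hoxb1 and Hoxd1, were too low to test). The background was 14.4% called lower over all genes. Hoxa10 had 36.4 and 38.9 CPM in the full window, against 57.5 and 58.1 CPM in the early window (-0.62 ± 0.052, adjusted p = 1.43e-12). Hoxa11 had 12.8 and 12.4 CPM in the full window and 20.9 and 21.7 CPM in the early window (-0.76 ± 0.074), though unstranded reads of its antisense neighbour would be counted with it. Hoxc8 fell by 0.63 on the log2 scale (adjusted p = 1.44e-10). The largest fall of the list was that of Hoxd12, a gene of the distal limb, at 0.791 and 0.747 CPM in the full window, against 2.51 and 2.67 CPM in the early window (-1.75 ± 0.20, adjusted p = 3.21e-09). Hoxd8 was among the members that rose (0.26 ± 0.090), and its call was lost without replicate 1 or 2 of the full window or replicate 1 of the early window (adjusted p between 0.0866 and 0.227) and with DESeq2 (adjusted p = 0.0819). Among the Meis and Pbx cofactors of Hox proteins, 2 of 9 rose and 2 fell (median -0.037, which turned to 0.0024 with limma on log2(TPM + 1)). Only 1 was called higher when any 1 of the 4 libraries was left out, and 1 lower without replicate 1 of the full or replicate 2 of the early window. The median was -0.023 and -0.021 without replicate 2 of the full and of the early window. Meis2 fell (-0.36 ± 0.049) and Pknox2 rose (0.63 ± 0.12).

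Of 13 genes of insulin-like growth factor (IGF) signalling 7 fell and 4 rose (median -0.25), beside 14.4% and 16.6% of all genes. Igfbp5, which encodes a secreted IGF-binding protein, was the largest decrease by the ranking given above. It had 17.0 and 17.6 CPM in the full window, against 56.6 and 58.0 CPM in the early window (-1.73 ± 0.048, adjusted p = 1.26e-27). Igf2, the fetal growth factor gene, had 257 and 252 CPM in the full window, against 449 and 468 CPM in the early window (-0.85 ± 0.034, adjusted p = 2.58e-22). In both genes each full-window library lay below each early-window library, which the ranking required. The margin was wider for Igfbp5. Igfbp3 fell less, with 588 and 597 CPM in the full window and 728 and 745 CPM in the early window (-0.31 ± 0.031), and Igfbp4 rose to 157 and 152 CPM in the full window against 105 and 104 CPM in the early window (0.56 ± 0.038).

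Of the Cxcl12 axis and other cytokines, 5 of 14 members rose and 4 fell (median 0.15, or 0.049 without replicate 2 of the full window and 0.079 without replicate 2 of the early window). Over all genes 16.6% were called higher and 14.4% lower. Cxcl12, the stromal chemokine gene, had 116 and 119.8 CPM in the full window, against 189 and 192 CPM in the early window (-0.69 ± 0.033, adjusted p = 1.29e-19). Its receptor gene Cxcr4 had 7.38 and 6.47 CPM in the full window, against 14.1 and 14.4 CPM in the early window (-1.04 ± 0.091, adjusted p = 4.08e-12). Ligand and receptor thus both fell, while the monocyte attractant gene Ccl2 (0.48 ± 0.046) and the macrophage growth factor gene Csf1 (0.38 ± 0.032) rose.

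Transcripts of the reprogramming factors fell in 4 of 4 members, with a median of -0.355. Pou5f1, the gene of Oct4, had 150.3 and 143 CPM in the full window, against 193 and 182 CPM in the early window (-0.35 ± 0.036, adjusted p = 2.00e-10). Sox2 (-0.38 ± 0.039), Klf4 (-0.35 ± 0.037) and Myc (-0.34 ± 0.034) fell by similar amounts. Reads from the cassette and from the endogenous copies are counted together. The 4 genes share the cassette, so their falls cannot be taken as 4 independent observations. With these 4 genes left out of the counts, 2407 genes were called higher and 2076 lower.

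Of 22 pluripotency genes 12 could be tested, of which 3 rose and 2 fell (median 0.38), beside 16.6% and 14.4% of all genes. The median was 0.070 without replicate 1 of the full window and 0.089 with limma on log2(TPM + 1), which called 1 lower. Nanog, a core factor of embryonic stem cells, had 3.12 and 3.67 CPM in the full window, against 1.43 and 1.50 CPM in the early window (1.21 ± 0.20, adjusted p = 6.60e-06). Sall4, a zinc finger factor of the same network, had 3.00 and 2.30 CPM in the full window and 0.984 and 1.64 CPM in the early window (0.99 ± 0.25, adjusted p = 0.00204). Its call was lost without replicate 1 of the full window (0.79, adjusted p = 0.0701) or replicate 1 of the early window (0.69, adjusted p = 0.101). Tcfcp2l1, a factor of the naive state, rose by 0.48 ± 0.081, and Fgf4, a growth factor of early embryo cells, fell by 0.52 on the log2 scale to 11.9 and 11.7 CPM in the full window against 16.7 and 17.0 CPM in the early window. Dot1l itself had 95.5 and 88.8 CPM in the full window and 81.6 and 81.3 CPM in the early window (0.18 ± 0.040), a call that was lost without replicate 1 of the full window (0.11, adjusted p = 0.0756). Of the 14 genes of DOT1L complexes and elongation factors, 2 rose and 2 fell. Without replicate 1 of the full window 1 rose and 1 fell, and without replicate 2 of the early window none fell. The median of -0.0069 turned positive with limma on log2(TPM + 1), without replicate 2 of the full window and without replicate 2 of the early window (0.032, 0.02 and 0.016), and was -0.013 and -0.026 without replicate 1 of the full and of the early window. Aff4, a scaffold of the super elongation complex, rose by 0.19 ± 0.036.

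Replication and division genes fell slightly. Over all genes 14.4% were called lower and 16.6% higher. Of 18 S phase genes 11 fell, and of 18 G2 and M phase genes 8 fell, with medians of -0.111 and -0.094. These counts were 7 and 4 without replicate 2 of the early window, and 6 and 3 with limma on log2(TPM + 1). Rrm1, a subunit of ribonucleotide reductase, had 414 and 428 CPM in the full window, against 538 and 553 CPM in the early window (-0.37 ± 0.033, adjusted p = 5.71e-12). The replicative helicase genes Mcm6 (-0.26 ± 0.032) and Mcm7 (-0.20 ± 0.032) fell. Plk1, a mitotic kinase, fell by 0.19 on the log2 scale and Cdk1, the kinase of mitotic entry, by 0.14. Of 16 p53 targets and inhibitors of cyclin-dependent kinases, 9 fell and 2 rose (median -0.118), with 5 falling without replicate 2 of the early window and 4 with limma, and 1 rising without replicate 2 of the full or of the early window. The inhibitor genes Cdkn1c and Cdkn1b fell. Cdkn1c had 64.5 and 62.2 CPM in the full window and 87.9 and 86.7 CPM in the early window (-0.46 ± 0.042), and Cdkn1b had 38.0 and 39.5 against 50.7 and 51.4 CPM (-0.40 ± 0.049). Sesn2, a stress sensor and p53 target, fell by 0.32 on the log2 scale. Cdkn2b, encoding the inhibitor p15, rose by 0.35 ± 0.047.

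Genes of sterol synthesis, which supply cholesterol and isoprenoids under control of SREBP2, rose nearly as a block: 15 of 16 tested members were called higher (median 0.216), against 16.6% of all genes. Each change was small. Sc4mol, a methylsterol oxidase gene, had 90.8 and 95.0 CPM in the full window, against 70.7 and 72.1 CPM in the early window (0.38 ± 0.038, adjusted p = 1.25e-10). Fdps, which makes farnesyl diphosphate, had 148 and 149 CPM in the full window, against 119.9 and 118 CPM in the early window (0.32 ± 0.033, adjusted p = 2.81e-10). Cyp51, which encodes a sterol demethylase, rose to 171 and 178 CPM in the full window against 144 and 144 CPM in the early window (0.28 ± 0.035). In no gene of these 3 did the windows overlap, as in 64.4% of all genes tested. The fatty acid desaturase genes Scd1 (0.38 ± 0.031) and Scd2 (0.47 ± 0.030) rose too. Of 15 glycolysis genes 6 rose and 1 fell (median 0.070), with 3 rising, 2 falling and a median of 0.042 without replicate 1 of the full window. The glucose transporter gene Slc2a1 had 113 and 110.0 CPM in the full window and 86.4 and 86.5 CPM in the early window (0.37 ± 0.037), and Aldoa (0.18 ± 0.032) and Pgk1 (0.16 ± 0.030) rose by less.

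Stress and signalling lists moved little. Over all genes 16.6% were called higher and 14.4% lower. Immediate early and heat shock genes rose in 5 of 15 members and fell in 1 (median 0.093), among them Egr1 (0.24 ± 0.042), Junb (0.22 ± 0.040) and Fosl2 (0.27 ± 0.034). The fallen member lost its call without replicate 1 of the full or replicate 2 of the early window, and the median was 0.059 and 0.156 without replicate 1 and 2 of the full window. Genes of amino acid stress and the unfolded protein response rose in 4 of 15 and fell in 2 (median 0.033), with Trib3, a pseudokinase target of ATF4, at 0.43 ± 0.097 and Phgdh, an enzyme of serine synthesis, at -0.24 ± 0.036. Interferon response genes rose in 5 of 18 and fell in 1, with a median of -0.045 that was 0.036 without replicate 1 of the early window, -0.11 without replicate 2 of the early window, and -0.092 and -0.0096 without replicate 1 and 2 of the full window. Gbp2, a guanylate binding protein gene induced by interferon, had 6.79 and 6.39 CPM in the full window and 3.26 and 3.15 CPM in the early window (1.04 ± 0.12), and Irf1 rose by 0.31 ± 0.060. The rising members numbered 3 for interferon without replicate 1 of the full or replicate 2 of the early window, and 1 or 2 for amino acid stress when 1 of the 4 libraries was left out. The fall of the interferon member was not called without either full-window library or replicate 2 of the early window, and 5 were called lower without the low-count filter. For amino acid stress 1 fell without either full-window library or replicate 1 of the early window, and the median was 0.0145 and 0.068 without replicate 1 and 2 of the full window and 0.0044 without replicate 1 of the early window.

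The called members of the lists of other cell types ranged from 1 of 11 skeletal muscle markers to 5 of 8 trophoblast markers, against 31% of all genes. Trophoblast and extraembryonic genes rose in 4 of 8 tested members and fell in 1 (median 0.32), with 2 rising without replicate 1 of the full window or either early-window library, and a median of 0.21 without replicate 1 of the early window. Their summed level was 41.1 to 42.2 CPM in the full window and 36.7 to 38.1 CPM in the early window, and Cdx2, Elf5 and Sox17 had 0 counts in both full-window libraries. Tcfap2c, an AP-2 factor of trophoblast and germ cells, had 8.80 and 10.1 CPM in the full window, against 4.88 and 4.13 CPM in the early window (1.07 ± 0.14), while Tead4 fell by 0.48 on the log2 scale. Macrophage and leukocyte markers rose in 3 of 13 and fell in 1 (median 0.077, or 0.021 without replicate 1 of the full and 0.042 without replicate 2 of the early window), and their summed level was 297.4 to 304.8 CPM in the full window against 298.6 to 303.1 CPM in the early window. C1qa (0.40 ± 0.069) and Lyz2 (0.23 ± 0.045) rose and Laptm5 fell (-0.21 ± 0.041). Endothelial markers rose in 2 of 7 and fell in 1 (median 0.57, or 0.143 with limma on log2(TPM + 1)), with 1 rising without either full-window library, with DESeq2 and with limma, and with summed levels of 45.3 to 46.4 CPM in the full window against 52.5 to 56.4 CPM in the early window and 1 count of Tie1 in each of the 4 libraries. The angiopoietin receptor gene Tek fell (-0.53 ± 0.054) and Egfl7 rose (0.57 ± 0.084). Skeletal muscle markers rose in 1 of 11 (median 0.00, sums of 8.38 to 9.83 CPM in the full window and 6.89 to 7.20 CPM in the early window). None was called without replicate 1 of the full or replicate 2 of the early window, and the median was 0.124 without replicate 2 of the full window and 0.31 and 0.241 without replicate 1 and 2 of the early window. Neural markers rose in 3 of 9 and fell in 2 (median 0.122, sums of 225 to 234.3 CPM in the full window and 174.1 to 174.6 CPM in the early window), with the progenitor filament gene Nes (0.45 ± 0.035) and Stmn2 (0.37 ± 0.040) higher. None was called lower when any 1 of the 4 libraries was left out or with DESeq2, and the median was 0.072 without replicate 2 of the full window. The part of these cells in the other differences was not tested.

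The 12 largest increases also held genes outside the lists. Lipg, which encodes endothelial lipase, had 4.20 and 4.94 CPM in the full window and 1.48 and 1.54 CPM in the early window (1.60 ± 0.15). Bdh1, a mitochondrial ketone body enzyme, had 12.2 and 13.2 CPM in the full window and 5.65 and 4.55 CPM in the early window (1.32 ± 0.10). Apoe, encoding the lipoprotein apolipoprotein E, had 75.5 and 69.8 CPM in the full window and 32.1 and 32.2 CPM in the early window (1.18 ± 0.061, adjusted p = 1.47e-16). Ret, the receptor tyrosine kinase of GDNF ligands, had 38.8 and 41.8 CPM in the full window and 18.1 and 18.1 CPM in the early window (1.16 ± 0.068). None of these overlapped between the windows, which the ranking required. The axon guidance gene Sema3a (1.36 ± 0.13), the G protein regulator Rgs8 (1.16 ± 0.070), the endocytic receptor gene Lrp2 (1.20 ± 0.16), the secreted epithelial protein gene Wfdc2 (1.20 ± 0.059) and Ly6c1 (1.31 ± 0.080), whose reads may be shared with the near copy Ly6c2, completed the increases not yet described. Among the decreases, the netrin receptor gene Unc5d had 4.82 and 4.52 CPM in the full window and 9.80 and 10.6 CPM in the early window (-1.13 ± 0.098), and Fosl1, an AP-1 subunit gene, had 0.527 and 0.954 CPM in the full window and 1.48 and 1.64 CPM in the early window (-1.05 ± 0.28). The call of Fosl1 was lost without replicate 1 of the full window (-0.72, adjusted p = 0.0667) or replicate 2 of the early window (-0.96, adjusted p = 0.0841).

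The same late exposure was also given to cells without the early one, as the mid window against the day 4 control, and these share no library with the full and early windows. Late exposure alone changed 3968 genes (27.4%; 2020 higher, 14%, and 1948 lower, 13.46%). The mid-window libraries differed from each other more than those of any other timecourse group, with a chi-square per degree of freedom of 11.1 over genes. It was 7.28 in the untreated MEFs, 3.68 in the full window and 3.26 in the early window. Fewer genes were called higher without replicate 2 of the mid window (1281) or without replicate 1 or 2 of the day 4 control (1336 and 1294). Of the 2409 genes that rose in the full over the early window, 1145 also rose in the mid window over the control, which is 47.5% of the 2409 and 56.7% of the 2020. Of the 2077 that fell, 876 fell in both, which is 42.2% of the 2077 and 45% of the 1948. Calls in opposite directions were made for 112 genes that rose in the full window and 46 that fell in it. The difference between the late effects, tested as a contrast of the 4 groups, was called for 1455 genes (10.1%; 847 higher, 5.85%, and 608 lower, 4.2%). DESeq2 called 749 higher and 334 lower for this difference and limma on log2(TPM + 1) 1124 and 214. Leaving out 1 library at a time gave between 487 and 688 higher and between 305 and 536 lower. The higher count was 535 without replicate 1 of the early window and 536 and 487 without replicate 1 and 2 of the control, and the lower count was 373 without replicate 2 of the full window, 385 without replicate 2 of the mid window and 305 or 325 without either control library or replicate 1 of the early window. For Cdh1, late exposure added 1.19 ± 0.078 after the early exposure and 1.44 ± 0.086 without it, and the difference of -0.24 ± 0.12 was not called (adjusted p = 0.191).

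**Figure D3:**
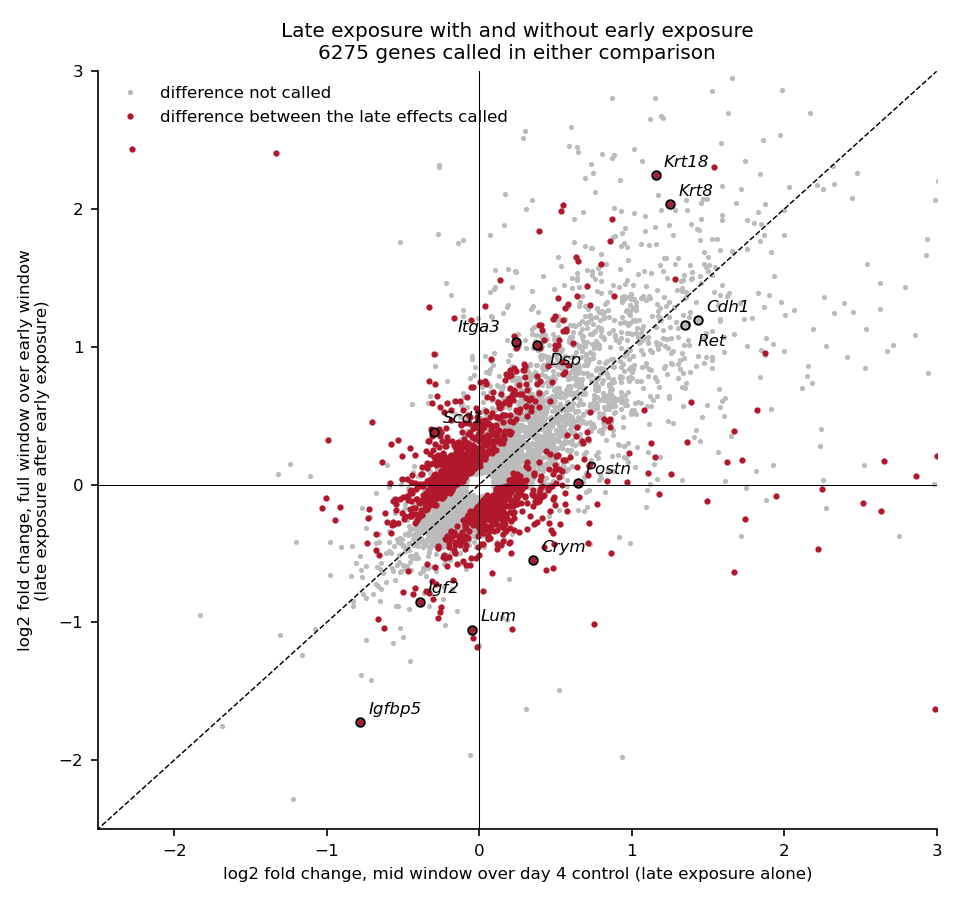
Log2 fold change of the full over the early window (vertical) against that of the mid window over the day 4 control (horizontal) for the 6275 genes called in either comparison, with the dashed line marking equal effects. Red points are the 1385 drawn genes whose difference was called, and 47 genes lie outside the axes. Krt8, Krt18, Dsp and Itga3 lie above the line, Igfbp5, Igf2 and Lum below it, and Crym falls after early exposure while it rises without it.

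Several keratin, desmosome and laminin receptor genes gained more from the late exposure when the early one had come first. Of the 16 keratin and desmosome genes 7 had a called difference toward a larger value after early exposure (median difference 0.397), as had 6 of the 9 laminin and integrin genes (median 0.297), against 5.85% of all genes. Krt8 had 8.10 and 9.00 CPM in the mid window and 3.75 and 3.43 CPM in the day 4 control, a change of 1.25 ± 0.11, and the difference from the change after early exposure was 0.78 ± 0.15 (adjusted p = 3.48e-04). For Krt18 the difference was 1.09 ± 0.22 and for Dsp 0.64 ± 0.068 (adjusted p = 8.58e-09). Itga3 had 10.8 and 13.0 CPM in the mid window and 10.1 and 10.1 CPM in the control (0.24 ± 0.085), against 1.03 ± 0.075 after early exposure, and the difference was 0.79 ± 0.11. Rgs8 (0.76 ± 0.10), Wfdc2 (0.65 ± 0.085) and Ly6c1 (0.73 ± 0.12) likewise gained more. The genes named here were picked by their full over early change or its p-value. That change is part of the difference, so the choice favours larger differences.

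On the falling side, Igfbp5 had 39.8 and 40.3 CPM in the mid window and 68.4 and 69.0 CPM in the day 4 control. Its late change was -1.73 ± 0.048 after early exposure and -0.78 ± 0.043 alone, with a difference of -0.95 ± 0.065 (adjusted p = 6.96e-14). Igf2 and Cxcl12 also fell further after the early exposure, with differences of -0.46 ± 0.047 and -0.52 ± 0.046. Lum had 7.81 and 7.87 CPM in the mid window and 8.05 and 8.16 CPM in the control, a late change alone of -0.047 ± 0.097 that was not called (adjusted p = 0.766), and the difference was -1.0 (adjusted p = 4.40e-06). Ogn (-0.52 ± 0.060), Nov (-0.67 ± 0.098) and Fndc1 (-0.64 ± 0.12) showed the same order. Lum, Ogn, Nov and Fndc1 were picked by their fall in the full over the early window, which is part of this difference. Crym, which encodes the thyroid hormone binding protein mu-crystallin, had 239.5 and 234 CPM in the full window, 355 and 338 CPM in the early window, 281 and 289.9 CPM in the mid window and 222 and 225 CPM in the control. Each 2-day exposure alone left it higher than the control and the full window left it lower than the early window, with a difference of -0.90 ± 0.046 (adjusted p = 1.01e-17). Postn rose with late exposure alone, to 143 and 137 CPM against 91.0 and 87.5 CPM in the control (0.65 ± 0.036), and its change after the early one was not called, a difference of -0.63 ± 0.050 (adjusted p = 6.15e-12). Igfbp3 rose alone (0.20 ± 0.031) and fell after early exposure, a difference of -0.51 ± 0.043.

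Sterol synthesis genes changed in opposite directions in the comparisons of late exposure. The 15 members that rose in the full over the early window were the same 15 that fell in the mid window over the control (median -0.218), and all 15 had a called difference (median over the 16 of 0.447). In cells at day 4, Fdps stood at 148 and 149 CPM in the full window, 119.9 and 118 CPM in the early window, 121 and 119.6 CPM in the mid window and 140.5 and 144 CPM in the control. The full window was the highest and the day 4 control the next, with the early and mid windows below both. Cyp51 stood at 171 and 178 CPM in the full window, 144 and 144 CPM in the early window, 134 and 128 CPM in the mid window and 155 and 149 CPM in the control. The differences were 0.63 ± 0.054 for Sc4mol, 0.56 ± 0.047 for Fdps and 0.50 ± 0.051 for Cyp51. Scd1 (0.68 ± 0.045), Scd2 (0.65 ± 0.043), the membrane repair gene Myof (0.58 ± 0.045) and the caveolin gene Cav1 (0.58 ± 0.047) had the 4 smallest p-values among upward differences of genes with an average log2 CPM of at least 3. Scd2 had 1313 and 1318 CPM in the full window, 939 and 962 CPM in the early window, 967 and 944 CPM in the mid window and 1088 and 1082 CPM in the control.

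**Figure D4:**
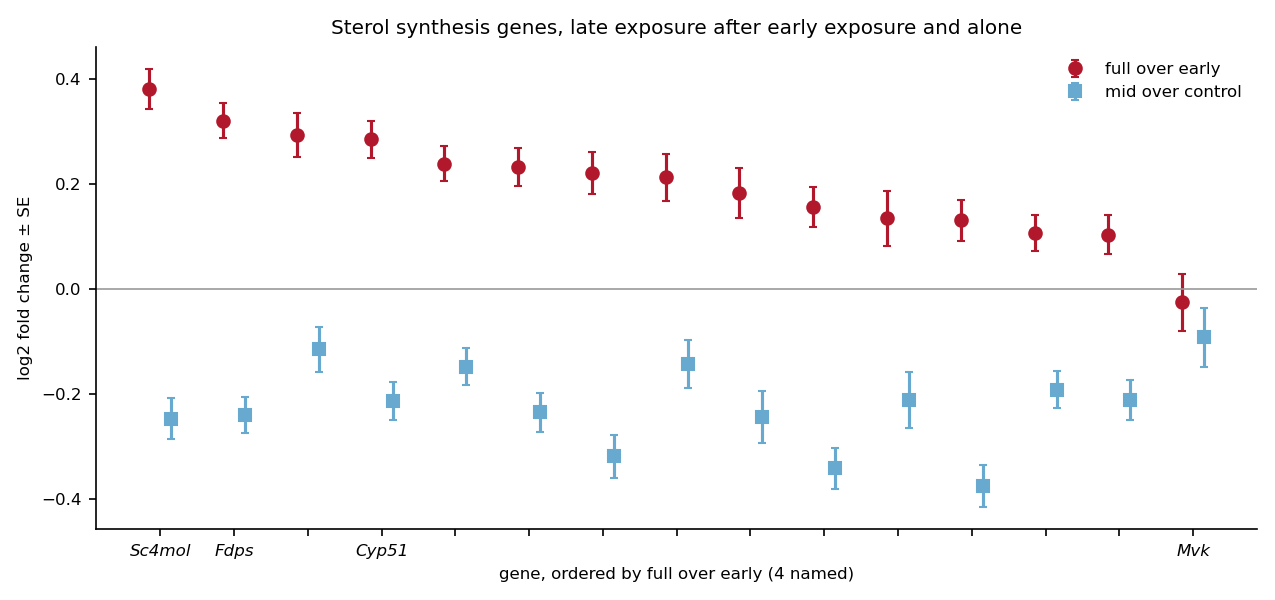
Log2 fold change with its standard error (vertical axis) of 15 of the 16 tested sterol synthesis genes for late exposure after early exposure (red circles, full over early window) and alone (blue squares, mid window over day 4 control), with 4 genes labelled. The circles lie above 0 and the squares below 0 in 14 of the 15 genes drawn, and for Mvk both lie below 0.

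Which changes outlasted withdrawal was read from genes chosen at day 2, in libraries that no day 4 comparison uses. The early-window libraries enter both day 4 comparisons below, so the values are given side by side only. At day 2 the inhibitor had changed 2583 genes (17.8%; 1264 higher, 8.73%, and 1319 lower, 9.11%), and with limma on log2(TPM + 1) 1315 were called higher and 490 lower. Without any 1 of the 4 day 2 libraries, 789 to 824 were called higher and 721 to 792 lower. Of the 1264 higher genes, 829 (65.6%) rose in the full over the early window and 27 fell, with a median of 0.39, beside a median of 0.45 at day 2, where they were chosen. The background of the full over the early window was 16.6% called higher and 14.4% called lower over all genes. After withdrawal, 206 of the 1264 (16.3%) were still called higher in the early window than in the day 4 control and 26 lower, with a median of 0.099 and a background of 3.19% called higher (461 of 14473 genes). Of the 1319 lower genes, 782 (59.3%) fell in the full over the early window and 40 rose (median -0.14), while 143 (10.8%) were lower in the early window than in the control and 32 higher (median -0.026, background 2.45%, 354 genes). The counts depend on single libraries. Without replicate 1 of the day 2 control, 544 genes were higher in both the day 2 and the full against early comparison. Without single day 2 libraries (either inhibitor replicate, or control replicate 2) between 486 and 519 were lower in both, and 280 with limma. Without replicate 1 of the early window or either day 4 control library between 122 and 136 remained higher after withdrawal, and without any 1 of the 4 early-window and control libraries between 66 and 89 remained lower, or 58 with limma. In all, early over control gave 815 calls (5.63%), and between 232 and 263 higher and between 141 and 189 lower calls without any 1 of the 4 libraries.

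**Figure D5:**
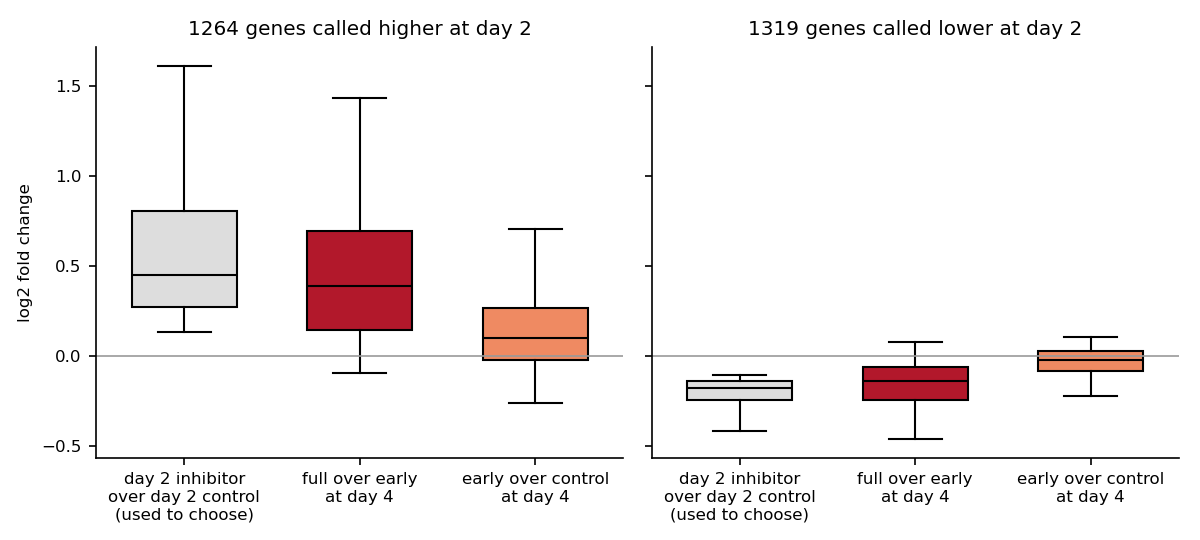
Log2 fold changes (vertical axis) of the 1264 genes called higher and the 1319 called lower at day 2, in the day 2 comparison that chose them, in the full over the early window and in the early window over the day 4 control. Boxes show the median and quartiles and whiskers the range from the 5th to the 95th percentile, and the box after withdrawal lies close to 0 on both sides.

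The genes with the largest increases at day 2 took different courses. Bdh1 had 13.0 and 14.7 CPM in day 2 inhibitor cells and 6.72 and 7.32 CPM in day 2 control cells (0.98 ± 0.095). At day 4 it was at 5.65 and 4.55 CPM in the early window and 4.31 and 3.71 CPM in the control, a difference that was not called (0.34 ± 0.12, adjusted p = 0.0919). Lipg (0.27 ± 0.20), Ly6c1 (0.06 ± 0.087) and Itga3 (0.24 ± 0.082) were likewise not called after withdrawal, although they had risen by 1.02 ± 0.11, 1.02 ± 0.11 and 1.03 ± 0.078 at day 2. Cdh1, higher by 1.29 ± 0.11 at day 2, kept part of its rise, with 11.9 and 12.6 CPM in the early window against 8.02 and 7.53 CPM in the control (0.65 ± 0.088, adjusted p = 1.74e-06). Spock2, a matrix proteoglycan gene, had risen by 1.10 ± 0.11 at day 2 and was still higher by 0.44 ± 0.057 after withdrawal, with a further 0.45 ± 0.054 in the full window. Dpp4, a cell surface peptidase gene, was higher by 0.33 ± 0.081 after withdrawal, a call that was lost without replicate 2 of the early window (adjusted p = 0.0813) or replicate 1 of the control (adjusted p = 0.209) and with limma (adjusted p = 0.122), and by 1.15 ± 0.074 in the full over the early window. Tril, a Toll-like receptor accessory gene, was the exception. It had risen by 1.24 ± 0.22 at day 2 and had 13.8 and 10.9 CPM in the full window and 14.3 and 13.8 CPM in the early window at day 4, a change of -0.19 ± 0.088 that was not called (adjusted p = 0.0914). It was called lower without replicate 1 of the full window (-0.38, adjusted p = 0.00466), without the low-count filter (adjusted p = 0.0458) and in the 4 libraries alone (adjusted p = 0.0318).

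The day 2 gain of Krt8 and Krt18 was not called after withdrawal. Krt8 had 4.23 and 4.47 CPM in day 2 inhibitor cells and 1.69 and 1.95 CPM in day 2 control cells (1.26 ± 0.14), and after withdrawal 3.98 and 4.08 CPM in the early window against 3.75 and 3.43 CPM in the day 4 control (0.17 ± 0.12, adjusted p = 0.525). Krt18 was 1.38 ± 0.19 at day 2 and 0.17 ± 0.18 after withdrawal, which was not called (adjusted p = 0.705). Other epithelial genes were still called. Cldn3 was higher by 0.91 ± 0.12 in the early window than in the control (adjusted p = 1.81e-06), F11r by 0.55 ± 0.059 and Spint1 by 0.53 ± 0.10. Of the lists, 5 of 15 junction genes and 4 of 16 keratin and desmosome genes were called higher after withdrawal, against 3.19% of all genes. In the same comparison 5 of 37 Hox genes were lower, beside 2.45% of all genes. At day 2 it was 10 of 37, beside 9.11% of all genes.

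Genes with the largest decreases at day 2 were followed in the same way. Nnat, the imprinted neuronatin gene, had 11.0 and 11.2 CPM in day 2 inhibitor cells and 25.5 and 25.2 CPM in day 2 control cells (-1.19 ± 0.069). It was at 37.1 and 40.3 CPM in the early window and 40.3 and 40.6 CPM in the day 4 control (-0.062 ± 0.057, adjusted p = 0.651), while the full window held 23.5 and 21.8 CPM (-0.78 ± 0.060). The Wnt receptor gene Fzd5, -0.60 ± 0.047 at day 2, and the folate hydrolase gene Ggh, -0.61 ± 0.048 at day 2, were not called after withdrawal (-0.026 ± 0.042 and -0.14 ± 0.051) and fell in the full over the early window (-0.28 ± 0.043 and -0.80 ± 0.054). Fcrls, a gene of microglia and related macrophages, was lower at day 2 (-0.79 ± 0.16) and was called neither after withdrawal (-0.07 ± 0.077) nor in the full over the early window (-0.16 ± 0.078). Cnn1, encoding calponin, had fallen by 0.56 on the log2 scale at day 2 and was not called at day 4 (0.40 ± 0.19). It was called higher at day 4 without replicate 2 of the full window (0.63, adjusted p = 0.0073) and in fits with a replicate block (0.40, adjusted p = 0.0273), without the low-count filter or with fewer libraries, and its day 2 call was lost with limma on log2(TPM + 1) (-0.50, adjusted p = 0.0632). The nuclear factor I gene Nfix kept part of its fall: it had 51.2 and 50.2 CPM in the full window, 87.3 and 88.7 CPM in the early window and 107 and 106 CPM in the control (-0.27 ± 0.038, adjusted p = 2.59e-06). Cxcr4 was lower after withdrawal (-0.37 ± 0.081), with the call lost without replicate 1 of the early window (adjusted p = 0.0514) or replicate 1 of the control (adjusted p = 0.0611).

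A further set of genes differed between the early window and the day 4 control 2 days after withdrawal. Bex4 and Bex1 are small X-linked genes of the brain-expressed family. Bex1 had 26.6 and 24.9 CPM in the early window and 14.7 and 14.8 CPM in the day 4 control (0.81 ± 0.070, adjusted p = 5.84e-11), and 42.8 and 40.1 CPM in the full window. Bex4 was higher by 0.95 ± 0.084 in the early window than in the control and by a further 0.42 ± 0.077 in the full window. Tcfap2c had 4.88 and 4.13 CPM in the early window against 1.85 and 2.21 CPM in the control (1.14 ± 0.17, adjusted p = 8.45e-06). Nanog was higher by 1.03 ± 0.25 in the early window than in the control, with the call lost without replicate 2 of the early window (adjusted p = 0.0756) or of the control (adjusted p = 0.181). Sall4, at 0.984 and 1.64 CPM in the early window and 0.302 and 0.187 CPM in the control, was higher by 2.41 ± 0.37 (adjusted p = 1.15e-05). On the lower side, Gap43, a growth cone gene, had 3.26 and 3.40 CPM in the early window and 6.26 and 6.76 CPM in the control (-0.96 ± 0.10, adjusted p = 1.06e-08), and the full window, at 2.83 and 2.82 CPM, was not called lower than the early window (-0.24 ± 0.12, adjusted p = 0.133). Hoxd12 (-1.27 ± 0.14), Meox2 (-0.48 ± 0.063), Hic1 (-0.45 ± 0.077), Abi3bp (-0.52 ± 0.062) and Twist2 (-0.41 ± 0.072) were lower after withdrawal as well as in the full over the early window.

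Some growth factor and chemokine genes also differed after withdrawal. Igf2 (-0.31 ± 0.033) and Cxcl12 (-0.29 ± 0.032) were lower in the early window than in the control. Igfbp5 was lower after withdrawal (-0.26 ± 0.040), although it had been higher at day 2, with 9.24 and 9.10 CPM in inhibitor cells and 6.87 and 7.64 CPM in control cells (0.34 ± 0.075, with the call lost without replicate 1 of the day 2 control, adjusted p = 0.0607). Abi3bp showed the same turn, with 13.2 and 14.1 CPM in day 2 inhibitor cells and 11.2 and 9.84 CPM in day 2 control cells (0.38 ± 0.076). Crym was higher by 0.63 ± 0.032 in the early window than in the control. Sterol genes were lower in 7 of 16 members after withdrawal, against 2.45% of all genes. Among them were Fdps (-0.25 ± 0.033) and Sc4mol (-0.21 ± 0.038), with Scd1 (-0.21 ± 0.032) and Scd2 (-0.19 ± 0.030) lower beside them. The 4 reprogramming factors, which share the cassette and are not independent, were lower in 4 of 4 at day 2 with inhibitor. After withdrawal their values lay between 0.013 for Myc and 0.089 for Klf4, with adjusted p = 0.176 for Klf4.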

How the data were processed

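Poly(A) RNA of 14 timecourse libraries was used, 2 for each of 7 groups, out of 36 in the series. The authors deposited 1 table per library with expected counts and TPM for 20325 genes. Trimmomatic, Bowtie, RSEM 1.2.4 and the builds mm9 and hg18 are named in the submitters' processing notes, without their roles. The kit does not mark strand, per the labels' protocols. A human spike-in is described there and was not used here.

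Expected counts were rounded and genes of low counts removed (filterByExpr of edgeR, minimum count 10, minimum total 15), which left 14473 genes and removed 5852. Libraries were scaled by TMM and fitted with the robust quasi-likelihood test of edgeR 4.0.16 (R 4.3.3), with 1 coefficient per group, 7 residual degrees of freedom and Benjamini-Hochberg adjustment over all genes tested in each of 5 comparisons. CPM values are TMM-scaled. The difference of late effects is (full minus early) minus (mid minus control). Scripts were tested on simulated data. Alternatives were DESeq2 1.42.0, limma 3.58.1 on log2(TPM + 1) with the deposited TPM, other size factors, no filter, a replicate block, fewer libraries, and leaving out each library. Promoter sequences came from RefSeq (GRCm38.p6), with 4 of the 6 genes looked up found.

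Named genes were the 12 largest increases and decreases, up to 4 members per list by p, the 4 smallest p in each direction of the difference of late effects, the 8 largest changes in each direction at day 2 and the 4 largest changes in each direction that were kept after withdrawal, plus 11 genes always named. Some of them are not reported here. The members and the lists were chosen with earlier results of these data known. The list genes Col6a3, H19, Hmgcs1 and Map2 were not analysed here. Total expected counts of 32883668 to 50866706 per library limit precision at low levels.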

Additional observations from a re-analysis of the deposited data

Results flagged for a closer look

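The effect of the late exposure differed between cells with and without the early exposure, by the edgeR quasi-likelihood test of the difference itself, in 847 genes toward a higher value after early exposure and in 608 toward a lower one. Among them were 15 sterol synthesis genes on the higher side. Each value below is this difference on the log2 scale. Many of the genes were picked by their full over early change or its p-value, which is part of the difference. Of the epithelial genes, Krt8 differed by 0.784, Krt18 by 1.09, Dsp by 0.636 and Itga3 by 0.792. Higher after early exposure were also Rgs8 (0.764), Wfdc2 (0.65) and Ly6c1 (0.733), with Myof at 0.584 and Cav1 at 0.577. Of the lipid genes, Sc4mol differed by 0.628, Fdps by 0.561, Cyp51 by 0.499, Scd1 by 0.678 and Scd2 by 0.653. On the lower side, the growth factor and chemokine genes Igfbp5 (-0.947), Igfbp3 (-0.512), Igf2 (-0.459) and Cxcl12 (-0.518) stood beside the matrix genes Lum (-1.0), Ogn (-0.525), Postn (-0.631), Nov (-0.669) and Fndc1 (-0.639). Crym differed by -0.90.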

How the results depend on the processing

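Of the 133 genes named for the full over the early window, 119 kept direction and call under all alternatives run, 10 lost their call under at least 1, 3 gained one, and 1 turned direction. The last was Postn, which was not called and stood at -0.0045 without the low-count filter and between -0.027 (without replicate 2 of the full window) and 0.041 (without replicate 1) when 1 library was left out. With limma on log2(TPM + 1), 1048 genes fell in the full over the early window, 214 were lower in the difference of late effects, 490 were lower at day 2 and 250 were higher in the early window than in the control, and DESeq2 called 334 lower in the difference of late effects. Of the called changes 485 increases and 29 decreases were at least 2-fold. Leaving out 1 library at a time gave 1709 to 1883 higher and 1372 to 1720 lower genes for the full over the early window, 487 to 688 and 305 to 536 for the difference of late effects, 1281 to 1544 and 1362 to 1615 for late exposure alone, 789 to 824 and 721 to 792 at day 2, and 232 to 263 and 141 to 189 for the early window over the control. These fits hold fewer samples. The lone library of a group was assumed to vary like the other groups. The replicate block gave 2396 higher and 2109 lower genes for the full over the early window, 864 and 635 for the difference of late effects, and moved none of these counts over all genes by over 1.5 times. Of the list counts it moved that of interferon response genes called lower, to 2 against 1. The replicate differences of the groups compared correlated at 0.052 (full and early window), 0.036 (mid window and control), 0.093 (day 2 inhibitor and day 2 control) and -0.16 (early window and control). Over all pairs of groups they ran from -0.386 (day 2 inhibitor and mid window) to 0.148, and the full and mid windows, both in the difference of late effects, stood at -0.196. No label ties the numbers to a shared batch, and they were not taken to pair the samples. With crossed numbers in the early window, added after seeing the data, 464 genes were higher and 361 lower in the early window than in the control. Depth limits the genes below about 1 CPM, among them the 10 of 22 pluripotency genes too low to test.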
